A study of Oryzias latipes with 12 samples.

Results

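Radial glia and astroglia genes were followed in the medaka brain through 4 gene symbols, s100b, glul, vim and sox2. The members were all rows of the expression table that carry one of these symbols by NCBI gene ID, 5 of 26663 genes, because sox2 is the symbol of 2 IDs (101162114 and 100049368). The IDs of the others are 101168682 (s100b), 101159856 (glul) and 101163931 (vim). RNA came from medaka (Oryzias latipes) brain pieces that held ventral telencephalon, hypothalamus and pituitary. The design had 4 groups of 3 libraries. These were wild-type fish and fish knocked out for phod1 (written pd1 in the sample labels), each sampled at hour 12. For each genotype, 3 libraries come from day 0 under short days and 3 from day 12 after the move to long days. The kind of phod1 allele, the strain, the age and the sex were not given in the sources used here. No short-day group was sampled on day 12, so day length cannot be told apart from elapsed time or the transfer itself.

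Radial glia line the ventricles of the fish brain throughout life, act as neural progenitors, and take on many of the duties that astrocytes have in mammals. They clear glutamate, supply glutamine and, in fish, carry brain aromatase, which makes oestrogen from androgen. The protein of s100b is a small calcium-binding EF-hand protein used as a glial marker. The enzyme glutamine synthetase is encoded by glul, the intermediate filament protein vimentin by vim, and an HMG-box transcription factor that keeps neural progenitors undifferentiated by sox2.

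Levels were given as TPM, a transcript's share of all transcripts in its library, already scaled for gene length, so that levels of different genes can be set side by side. All 5 members were among the 18218 genes that passed a filter of 1 TPM in at least 3 libraries. Tests were made on log2(TPM + 1) with limma, in 1 fit to all genes and libraries, with p adjusted by Benjamini-Hochberg over all tested genes, and a call is an adjusted p under 0.05. Whether libraries stem from different fish is not in the labels, and the p-values thus measure only library-to-library spread, which may be technical. The sequencing depth behind each value is unknown.

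The labelled tissue was checked first. The neuronal gene snap25 averaged 2474 TPM, the pituitary hormone gene pomc 4376 TPM and the glial glutamate transporter gene slc1a2 986 TPM over the 12 libraries, while the row of the pituitary hormone gene prl lay at 0 to 0.35 TPM. Among glial markers aldoc averaged 2003 TPM and fabp7 1923 TPM. The rows of the water channel gene aqp4 and the glutamate transporter gene slc1a3, both astroglial in mammals, stayed at or below 1.22 TPM, and no row carried the symbol gfap or nes. Short-day wild-type replicate 3 stood apart in interferon-induced genes, all 4 of 4 looked up being highest there (rsad2 at 287 TPM against at most 6.30 TPM elsewhere). The s100b genotype difference over both photoperiods is also given without it. No row carried the symbol phod1 or pd1, and the loss of that gene was therefore not checked.

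The members spanned a wide range of levels. Glutamine synthetase was the most abundant, between the 32nd and the 80th highest gene of its library in all 12 libraries, with a mean of 1809 TPM. The calcium-binding protein gene s100b averaged 939 TPM, with a rank between 107 and 211. The sox2 genes averaged 119 TPM (101162114) and 79.25 TPM (100049368), and vim was the least abundant at 44.5 TPM. Their spread over all libraries differed as well. The coefficient of variation was 19.6% for s100b, 12.7% for vim, 10.1% for sox2 (100049368), 7.10% for sox2 (101162114) and 5.89% for glul.

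**Figure D1:**
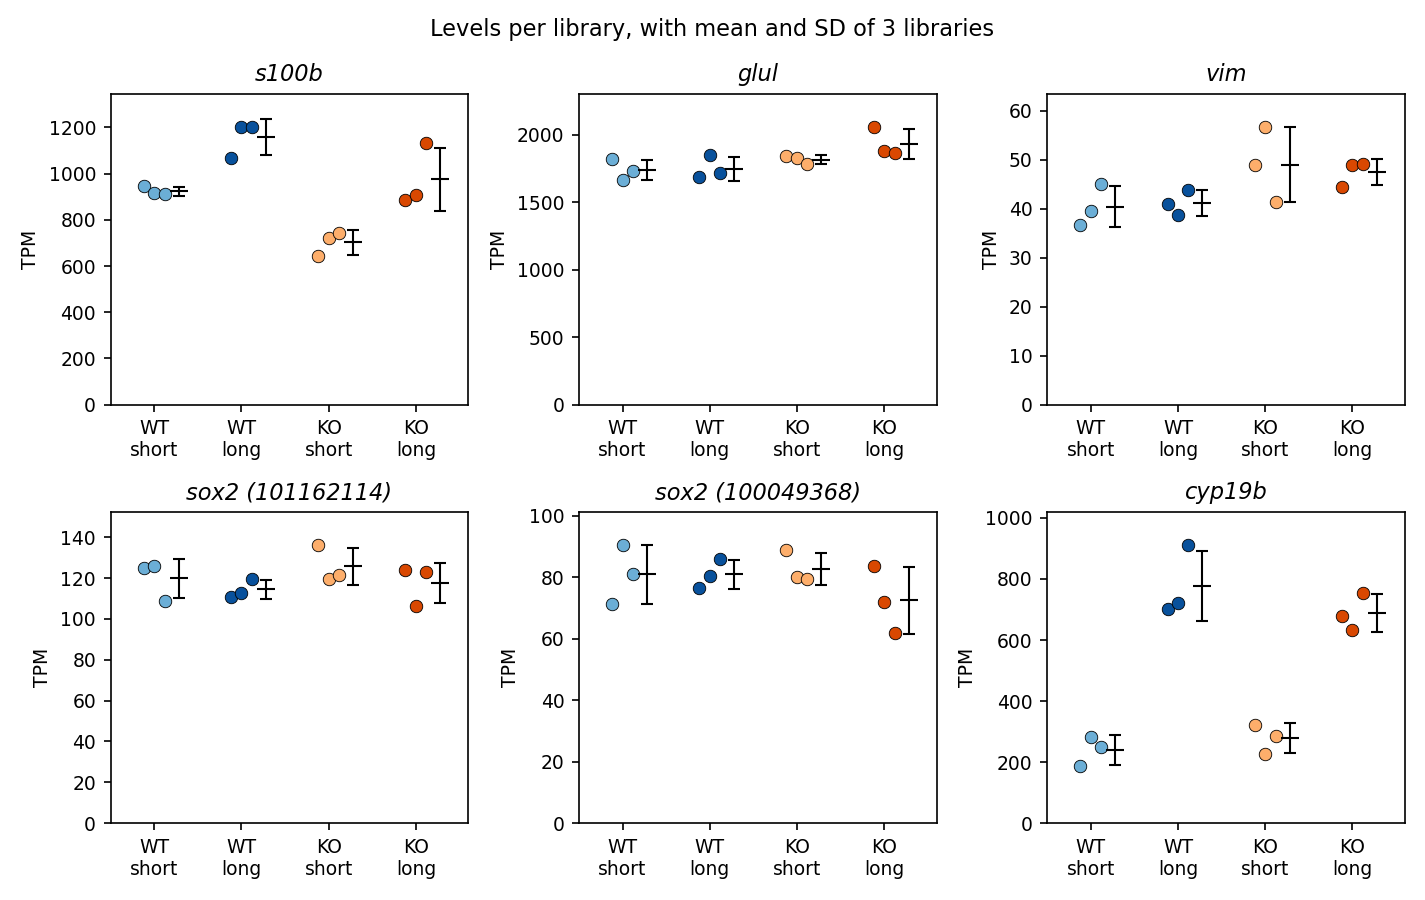
TPM of the 5 members and of brain aromatase cyp19b in each library (points), with the mean and SD of 3 libraries per group (bar and whiskers), for wild type (WT) and phod1 knockout (KO) under short and long days. The short-day knockout libraries of s100b, at 642 to 743 TPM, lie below all others, whereas glul stays between 1667 and 2059 TPM.

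The gene s100b was higher under long days and lower in the knockout. In short-day wild type its libraries stood at 946, 914 and 909.9 TPM (replicates 1, 2 and 3; mean 923 ± 19.5, SD, n = 3). In long-day wild type they stood at 1067, 1203 and 1201 TPM (replicates 13, 14 and 15; 1157 ± 78.1). The knockout libraries stood at 642, 723 and 743 TPM under short days (replicates 1, 3 and 4; 702 ± 53.5) and at 884, 909 and 1132 TPM under long days (replicates 13, 14 and 16; 975 ± 137). Within each genotype every long-day library was above every short-day library. Under short days every knockout library was below every wild-type library, and under long days the groups overlapped through knockout replicate 16, which exceeded wild-type replicate 13. The share of all tested genes without overlap was not counted, so such statements, here and below, only describe these libraries. The gene glul, not called in any comparison, also separated by day length in the knockout and by genotype under long days.

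Over both genotypes s100b rose with long days by 0.39 on the log2 scale (SE 0.07, adjusted p = 0.0120 by limma), a ratio of 1.31 with a 95% interval of 1.19 to 1.46. It was the only 1 of the 5 members called in this comparison, against 3.08% of all tested genes in either direction and 1.27% that rose. In the knockout alone it rose by 0.47 (SE 0.10, adjusted p = 0.0397 by limma), a ratio of 1.38. This made 1 of 5 members called, against 1.76% of all genes in either direction and 1.11% that rose. In wild type the difference was 0.32 (SE 0.10, adjusted p = 0.219 by limma), a ratio of 1.25 with an interval of 1.08 to 1.45. It was not called, nor was any other member, against 0.192% of all genes called by limma. At an unadjusted p under 0.05 it was 1 of 5 members, against 11.6% of all genes.

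Over both photoperiods s100b fell in the knockout by 0.33 on the log2 scale (SE 0.07, adjusted p = 0.0316 by limma), to 0.798 of the wild-type level with a 95% interval of 0.720 to 0.885. Again it was 1 of 5 members called, against 2.40% of all genes in either direction and 1.10% that fell. Within a photoperiod the genotype difference did not pass. The difference was -0.40 under short days (SE 0.10, adjusted p = 0.108 by limma) and -0.25 under long days (SE 0.10, adjusted p = 0.327 by limma). No member was called in either by limma, against 0.664% and 0.642% of all genes. At an unadjusted p under 0.05 there were 2 members under short days (s100b and vim) and 1 under long days (s100b), against 13.2% and 11.3% of all genes. The intervals of these ratios were 0.656 to 0.879 and 0.725 to 0.971. The 2 differences were not told apart, since the interaction of genotype and photoperiod was 0.14 (SE 0.14, 95% interval -0.15 to 0.44, adjusted p = 0.812 by limma). In that test 0.00549% of all genes were called and no member by limma, and at an unadjusted p under 0.05 there were 7.93% of all genes and 0 members. In bulk tissue, fewer cells of a type and less RNA per cell cannot be told apart.

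By mean level the groups ran in the order short-day knockout, short-day wild type, long-day knockout and long-day wild type. Short-day knockout stood clear of the next group. Short-day wild type and long-day knockout overlapped, as did long-day knockout and long-day wild type. The rise over both genotypes held in all 19 alternative settings, with adjusted p of 0.00438 to 0.0354 by limma. The other s100b calls were less stable. The knockout rise lost its call without any 1 of the 6 knockout libraries (adjusted p = 0.0575 to 0.103 by limma). The fall in the knockout lost its call without any 1 of 9 of the 12 libraries, short-day wild-type replicate 3 among them (adjusted p = 0.0512 to 0.0757 by limma), and kept it without short-day knockout replicate 4, long-day wild-type replicate 13 or long-day knockout replicate 16. Without short-day wild-type replicate 3 the difference was -0.33, with the same sign and nearly the same size. With any 1 compared library omitted, that replicate included, the wild-type rise ranged from 0.2939 to 0.3803. The short-day genotype difference then ranged from -0.4383 to -0.3331.

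**Figure D2:**
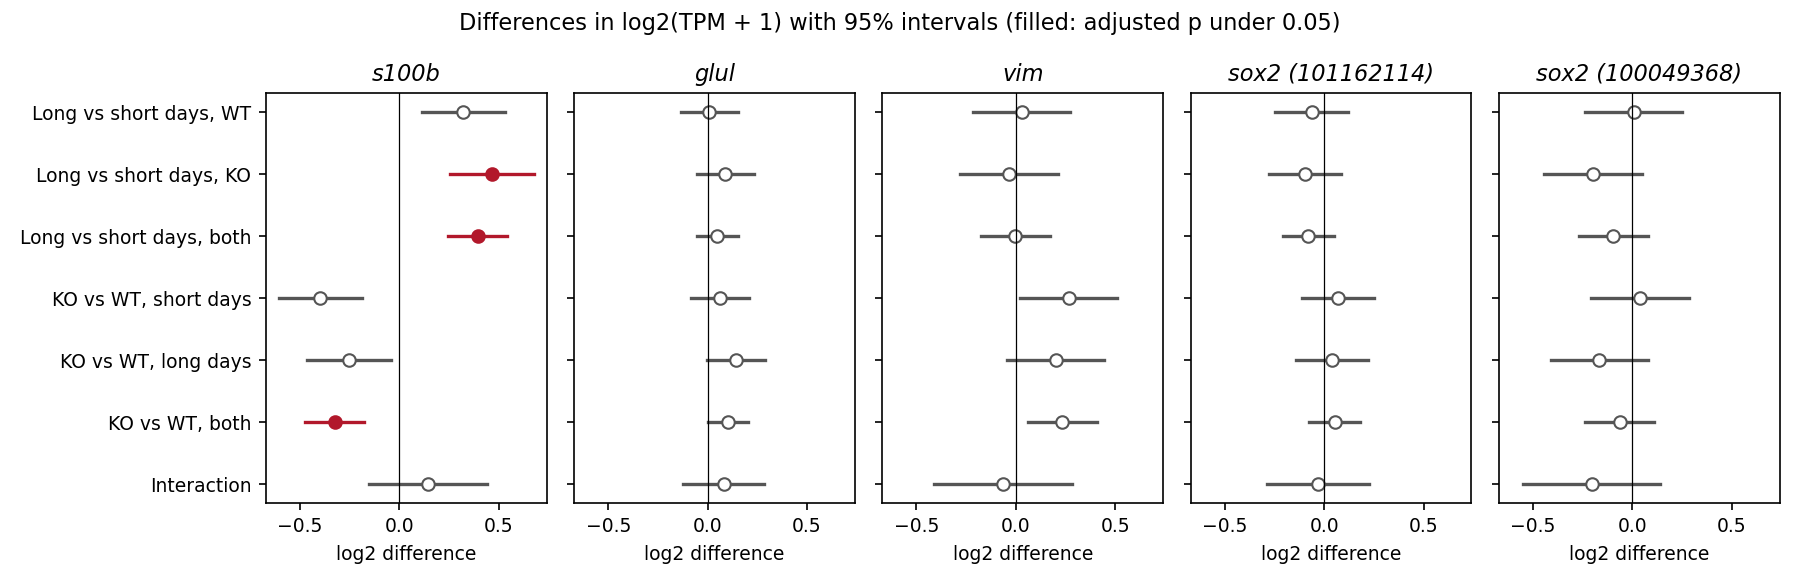
Difference in log2(TPM + 1) for each member (points) with its 95% interval (lines) in the 7 comparisons, where positive values are higher under long days or in the knockout and red filled points have an adjusted p under 0.05. The only filled points are those of s100b, at 0.47 and 0.39 for day length and at -0.33 for genotype.

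Measured against glul in the same library, a ratio that no scaling of whole libraries can alter, s100b had the same directions. The ratio of s100b to glul TPM was 0.520, 0.549 and 0.526 in short-day wild type and 0.633, 0.650 and 0.701 (0.7005) in long-day wild type. It was 0.348, 0.396 and 0.417 in short-day knockout and 0.429, 0.484 and 0.608 in long-day knockout. The groups did not overlap in any of the 4 comparisons of day length within a genotype or of genotype within a photoperiod. The ratio was 1.27 times as high under long days (exact permutation test within genotype, two-sided, p = 0.005, adjusted p = 0.00667 over 4 ratio tests). In the knockout it was 0.743 of that in wild type (exact permutation test within photoperiod, two-sided, p = 0.005, adjusted p = 0.00667). A p of 0.005 is the smallest that the 400 permutations can give. Both kept a p under 0.05 without any 1 of the 12 libraries (exact permutation p = 0.005 to 0.01). Since the groups do not overlap, that outcome was fixed in advance and adds no support. These ratio tests were chosen after the levels of s100b and glul had been seen. Part of the genotype difference in the ratio comes from glul, which was 0.10 higher in the knockout on the log2 scale and not called. Under long days s100b alone overlapped between genotypes. The ratio tests use the same s100b values and are therefore no independent support for the s100b calls of genotype or day length.

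Brain aromatase cyp19b, a radial glia enzyme in fish, rose with long days by 1.51 over both genotypes (SE 0.12, adjusted p = 0.000202 by limma), while its genotype difference was 0.02 (95% interval -0.24 to 0.28, adjusted p = 0.959 by limma; the sign turned in 6 alternative settings). The ratio of cyp19b to s100b was 2.17 times as high under long days (exact permutation p = 0.005, adjusted p = 0.00667) and 1.27 times as high in the knockout (exact permutation p = 0.04, adjusted p = 0.04). The second of these was lost without any 1 of 8 libraries, with exact permutation p of up to 0.115. Since cyp19b itself differed by only 0.02 between genotypes over both photoperiods, the pooled knockout ratio largely restates the fall of s100b. That 0.02 pools 0.21 under short days and -0.17 under long days, neither called. The ratio averaged 0.261 in wild type and 0.400 in the knockout under short days. Under long days it averaged 0.672 and 0.710, and the libraries overlapped, so the pooled difference lay mostly in short days. The long-day ratio likewise follows from the larger rise of cyp19b (1.51) than of s100b (0.39). Both ratio tests were chosen after the levels had been seen and are no separate support for either gene.

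**Figure D3:**
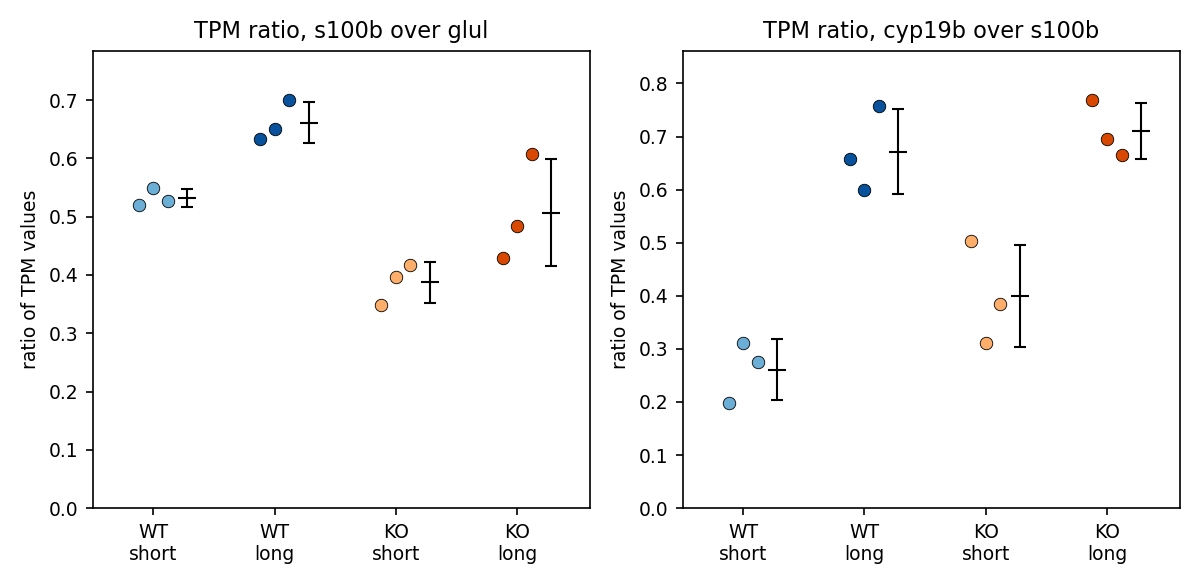
Ratio of TPM values within each library (points), s100b over glul on the left and cyp19b over s100b on the right, with the mean and SD of 3 libraries per group. The s100b to glul ratio is lowest in short-day knockout, at 0.348 to 0.417, and highest in long-day wild type, at 0.633 to 0.701.

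Glutamine synthetase did not pass in any comparison. The glul libraries stood at 1820.2, 1667 and 1729 TPM in short-day wild type (mean 1739 ± 77.0, SD, n = 3) and at 1684, 1849 and 1715 TPM in long-day wild type (1749 ± 87.8). In the knockout they stood at 1842, 1825 and 1781 TPM under short days (1816 ± 31.3) and at 2059, 1878 and 1862 TPM under long days (1933 ± 109). The long-day knockout libraries lay above all others, by a narrow margin over long-day wild-type replicate 14. The long-day genotype difference was 0.14 (95% interval 0.00 to 0.29, adjusted p = 0.448 by limma). Over both photoperiods it was 0.10 (95% interval 0.00 to 0.21, adjusted p = 0.315 by limma). For day length over both genotypes the ratio was 1.03 with an interval of 0.964 to 1.11.

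Genes around glul in the glutamate and glutamine cycle were mostly not called. Of 12 tested members of that list, 0 rose and 2 fell with long days over both genotypes, where 1.82% of all genes fell, with a list median of 0.01 against -0.01 over all genes. In 13 of 19 alternative settings 1 fell in place of 2. The members that fell were got1, the cytosolic aspartate aminotransferase, from 30.6 ± 0.115 to 24.4 ± 2.67 TPM in wild type and from 31.3 ± 0.573 to 23.3 ± 2.30 TPM in the knockout (-0.37, adjusted p = 0.0124 by limma), and gad1, a GABA-making glutamate decarboxylase of neurons (-0.27, adjusted p = 0.0454 by limma). The glial uptake transporter gene slc1a2 stood at 996 ± 37.0 and 1016 ± 95.9 TPM in wild type under short and long days, and at 997 ± 133 (132.5) and 936 ± 29.5 TPM in the knockout. Its genotype interval ran from -0.21 to 0.09. Between genotypes over both photoperiods 0 of the 12 were called by limma, against 2.40% of all genes, and 4 had an unadjusted p under 0.05, against 15.6% of all genes. Other abundant members of the list were abat, which breaks down GABA (genotype difference 0.26, adjusted p = 0.128 by limma), the vesicular glutamate transporter gene slc17a6 (0.04), the mitochondrial aminotransferase gene got2 (-0.10) and the decarboxylase gene gad2 (-0.06).

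Vimentin was not called in any comparison, and its genotype difference had the sign opposite to that of s100b. The vim libraries stood at 36.7, 39.6 and 44.9 TPM in short-day wild type (mean 40.4 ± 4.20, SD, n = 3) and at 40.9, 38.7 and 43.9 TPM in long-day wild type (41.2 ± 2.62). The knockout libraries stood at 48.9, 56.7 and 41.3 TPM under short days (49.0 ± 7.68) and at 44.5, 48.9 and 49.0 TPM under long days (47.5 ± 2.58). Under long days all 3 knockout libraries were above the wild-type libraries, and under short days the groups overlapped through knockout replicate 4. Over both photoperiods the difference was 0.23 (SE 0.08, 95% interval 0.06 to 0.41, unadjusted p = 0.0127 by limma), with an adjusted p of 0.174 by limma. At the unadjusted level 15.6% of all genes had a p under 0.05. The day-length difference of vim over both genotypes was 0.00, with an interval of -0.18 to 0.17.

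Other intermediate filament genes were not called either. All 8 tested members of that list were higher in the knockout over both photoperiods and 0 were called by limma (2 at an unadjusted p under 0.05), with a list median of 0.18 against 0.00 over all genes. Of all genes 48.9% were higher, 2.40% were called and 15.6% had an unadjusted p under 0.05. Both other scalings left this count at 8, and it was 7 with array weights and 6 to 8 with a library left out. The sizes were uneven. The most abundant member, the nuclear lamin gene lmnb2 (55.8 TPM), was at 0.004 (adjusted p = 0.994 by limma) and the synemin gene synm at 0.03. The neuronal filament genes nefm, nefh and ina were at 0.18, 0.17 and 0.12, the lamin gene lmna at 0.24 and the peripherin gene prph at 0.63, the last at a mean of 4.29 TPM (adjusted p = 0.259 to 0.571 by limma for these 5). For prph the difference was 0.01 under short days and 1.25 under long days, where the knockout libraries stood at 6.17, 15.6 and 3.78 TPM. The list holds vim itself. Of the tested endothelial markers, 5 of 5 were higher in the knockout in this comparison and in all its alternative settings, and 0 were called by limma (3 at an unadjusted p under 0.05), with a median of 0.28, beside the same shares of all genes. Their summed level ran from 75.6 to 94.3 TPM in the wild-type libraries and from 85.5 to 113.9 TPM in the knockout libraries. Vimentin is also known from endothelial and mesenchymal cells, and the part of these cells in its level was not tested.

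The sox2 genes were treated as separate genes. By gene order in the RefSeq assembly ASM223467v1, sox2 (101162114) has atp11b and dnajc19 as its nearest neighbours with a gene name, which also flank SOX2 in the human genome. The other, sox2 (100049368), lies between tmtops3a and p2ry4. No row carried the symbol sox3, that of the closest relative of sox2. The sequences of these genes were not analysed here.

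Neither sox2 gene was called in any comparison. The libraries of sox2 (101162114) stood at 125, 126 and 109 TPM in short-day wild type (mean 119.8 ± 9.68, SD, n = 3) and at 111, 113 and 119.7 TPM in long-day wild type (114 ± 4.70). In the knockout they stood at 136, 119.6 and 121 TPM under short days (126 ± 8.97) and at 124, 106 and 123 TPM under long days (118 ± 9.90). All groups overlapped. The day-length difference over both genotypes was -0.08 (95% interval -0.21 to 0.05, adjusted p = 0.511 by limma), and the genotype difference over both photoperiods was 0.05 (95% interval -0.07 to 0.18, adjusted p = 0.739 by limma).

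The libraries of sox2 (100049368) stood at 71.4, 90.3 and 80.95 TPM in short-day wild type (mean 80.9 ± 9.475) and at 76.5, 80.4 and 85.9 TPM in long-day wild type (80.9 ± 4.72). In the knockout they stood at 88.7, 80.0 and 79.5 TPM under short days (82.75 ± 5.19) and at 83.6, 71.8 and 61.8 TPM under long days (72.4 ± 10.9). The lowest library was long-day knockout replicate 16, which was also the highest of its group in s100b. The day-length difference was -0.20 in the knockout (95% interval -0.44 to 0.05, adjusted p = 0.419 by limma) and 0.01 in wild type (95% interval -0.24 to 0.25, adjusted p = 0.991 by limma).

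The sox2 gene with ID 101162114 lies within the span of a long noncoding RNA gene, LOC101162358, and reads from overlapping genes can be hard to part even in strand-specific libraries. That RNA averaged 98.2 TPM. It stood at 112 ± 20.7 (SD, n = 3) and 112 ± 10.4 TPM in wild type under short and long days, and at 91.5 ± 19.0 and 77.5 ± 2.72 TPM in the knockout. Its genotype difference over both photoperiods was -0.41 (SE 0.11, adjusted p = 0.0866 by limma), opposite in sign to the 0.05 of sox2 (101162114). The vim gene touches the noncoding gene LOC105356284, which was at or below 0.59 TPM in all 12 libraries.

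Relatives of s100b and sox2 gave few calls. Of 6 rows whose symbol starts with s100, 4 passed the filter. The epithelial type gene s100a14 averaged 56.0 TPM, s100a1 6.37 TPM and s100p 0.755 TPM, so s100b made up nearly all of the family's summed level. The gene s100p fell with long days in the knockout (adjusted p = 0.0400 by limma; 0.653% of all genes fell), from 2.12, 3.76 and 1.10 TPM to a level listed at 0 in all 3 libraries. This call was lost in 7 of 15 alternative settings. Only the short-day knockout libraries of s100p reached 1 TPM, all others being at or below 0.77 TPM. The filter thus admitted it through the group where it is high, and the call cannot stand as a result. Of the 17 SOX family rows tested, 0 were called by limma for day length or for genotype over all libraries (0 and 3 at an unadjusted p under 0.05, against 18.8% and 15.6% of all genes), with list medians of 0.02 and 0.03. Beside the sox2 genes the most abundant were sox8 (92.7 TPM), sox4 (58.4 TPM), sox5 (55.2 TPM) and sox1 (47.3 TPM), with genotype differences of 0.07, -0.10, 0.01 and -0.05. The glial regulator sox9, needed for gliogenesis in mammals and named for that role after its values were seen, stood at 26.3 to 28.4 TPM by group mean.

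The members did not vary as 1 set. Over the 12 libraries the Pearson correlation of log2(TPM + 1) between member genes ran from -0.437 (s100b with sox2, ID 101162114) to 0.287 (glul with vim). It was 0.664 between s100b and cyp19b. After subtraction of the group means, s100b and cyp19b had a correlation of 0.05, so their likeness over all libraries lies in the group means. The strongest correlation of deviations among members was -0.615, between s100b and sox2 (100049368). These are descriptions over 12 libraries that share the 4 groups.

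The genes most like s100b in pattern, by Pearson correlation of log2(TPM + 1) over the 12 libraries, were ndufs7, a subunit of respiratory complex I (0.925), doc2b, a calcium sensor of vesicle release (0.883), zwilch (0.876), prkra (0.870) and kctd7 (0.866). Of these prkra, an activator of the kinase PKR, was called, like s100b, to rise with long days and to fall in the knockout over all libraries (0.39 and -0.38). Since it was picked for its likeness to s100b in these libraries, the directions follow largely from that choice and are a description only. It stood at 44.5 ± 2.62 and 50.45 ± 2.16 TPM in wild type under short and long days, and at 29.1 ± 2.02 and 44.6 ± 0.956 TPM in the knockout. The most opposite pattern was that of wdr77, a subunit of the arginine methyltransferase methylosome (-0.949), followed by sntb1 (-0.905) and dus2 (-0.896). The nearest pattern was that of dec1b for glul (0.959), iqce for vim (0.897), nkd1, an inhibitor of Wnt signalling, for sox2 with ID 101162114 (0.949) and ccne2, a cyclin of S phase entry, for sox2 with ID 100049368 (0.837). These were the extremes of 9446 tested genes with a name.

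The wider list of glial markers named 59 symbols, some of them alternative forms of 1 name, and most matched no row. It held 20 rows, of which 18 were tested, the members among them. Over both genotypes 2 of the 18 rose with long days, cyp19b and s100b, and 0 fell, where 1.27% of all genes rose and 1.82% fell. The list median was -0.02 against -0.01 over all genes. Over both photoperiods 1 fell in the knockout, s100b, and 0 rose (glul and vim were higher at an unadjusted p under 0.05), where 1.10% of all genes fell and 15.6% had such a p in either direction, with a list median of 0.03 against 0.00 over all genes. The most abundant markers were not called for day length or genotype over all libraries. They were the glycolytic enzyme gene aldoc (adjusted p = 0.613 and 0.804 by limma), the fatty acid binding protein gene fabp7 (0.737 and 0.689) and slc1a2 (0.865 and 0.742). Their 95% intervals for day length over both genotypes lay between -0.21 and 0.12. For fabp7 this pools differences of opposite sign, 0.25 in wild type and -0.36 in the knockout, neither of them called.

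**Figure D4:**
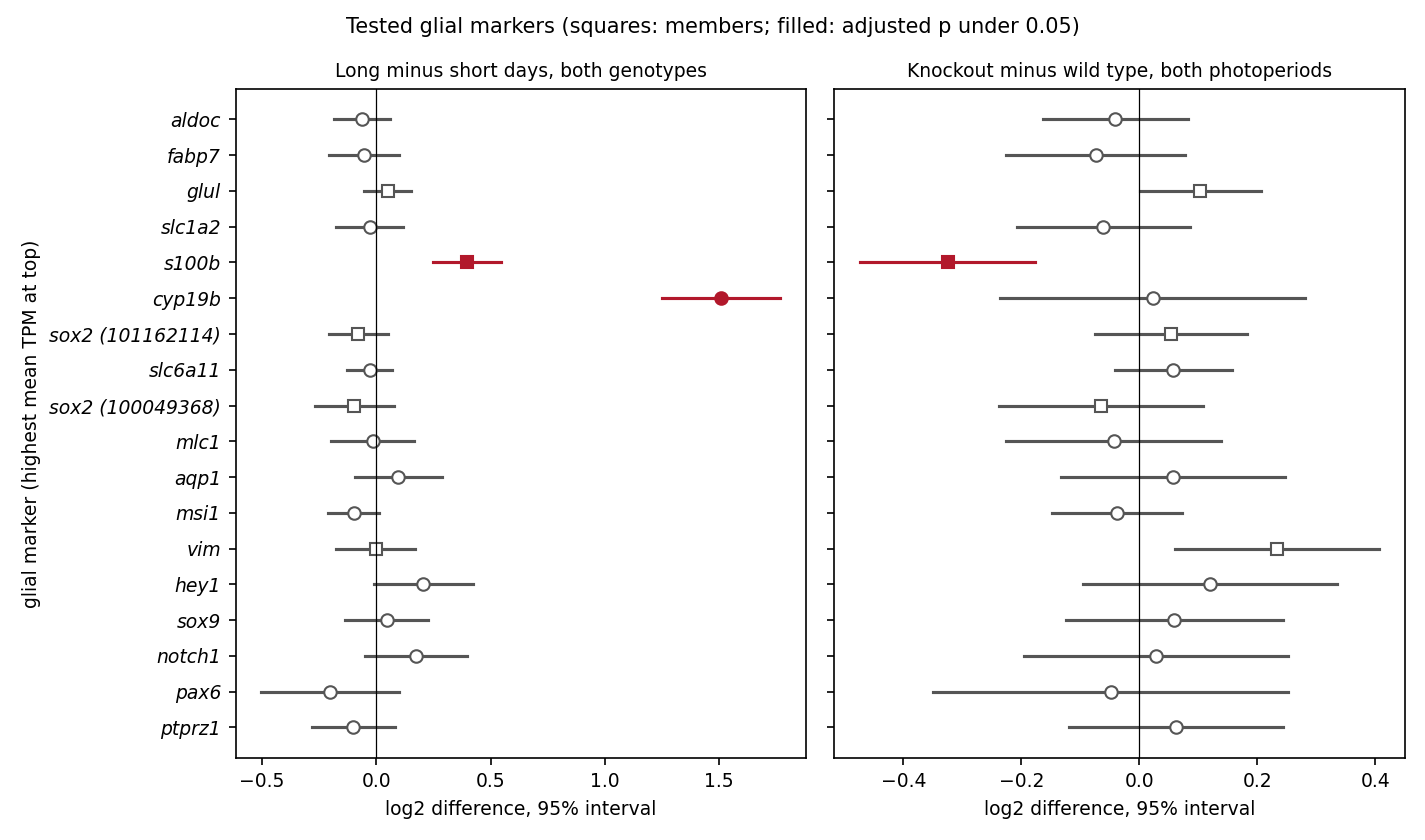
Difference in log2(TPM + 1) of the 18 tested glial markers (points) with 95% intervals (lines), for day length over both genotypes on the left and for genotype over both photoperiods on the right, with squares for the 5 members and red filled symbols for an adjusted p under 0.05. On the left cyp19b (1.51) and s100b (0.39) are filled, and on the right s100b (-0.33) alone.

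Markers of other cells were read beside s100b, which in mammals is also known from oligodendrocytes. With long days over both genotypes 1.27% of all genes rose and 1.82% fell, and between genotypes over both photoperiods 2.40% were called and 15.6% had an unadjusted p under 0.05. Of 11 tested oligodendrocyte and myelin genes 0 were called by limma in any comparison, with at most 1 at an unadjusted p under 0.05. Their summed level ran from 1564 to 2312 TPM in the wild-type libraries and from 1526.5 to 2233 TPM in the knockout libraries, and their median difference was -0.04 for day length and -0.03 for genotype. Of 13 tested neuronal genes 0 rose and 1 fell with long days over both genotypes, which was gad1, and 0 were called between genotypes over both photoperiods by limma (2 at an unadjusted p under 0.05). Among 24 progenitor and proliferation genes 4 rose and 1 fell with long days over both genotypes. The list median was 0.05 against -0.01 over all genes, and 13 of the 24 were higher, against 47.7% of all genes. The risers were the helicase subunit mcm7 (0.61, adjusted p = 0.00270 by limma), the mitotic kinase cdk1 (0.50, adjusted p = 0.00699 by limma), the spindle factor tpx2 (0.60, adjusted p = 0.0188 by limma) and cyclin B1, ccnb1 (0.57, adjusted p = 0.0331 by limma), and the gene that fell was cyclin D1, ccnd1 (-0.26, adjusted p = 0.0120 by limma). Mean levels of tpx2 and ccnb1 were low, at 3.69 and 1.98 TPM. The other helicase subunit genes were not called, with mcm2 at 0.22 and mcm3, mcm4, mcm5 and mcm6 at -0.05, -0.03, -0.02 and 0.04. The replication gene pcna was at -0.10 and not called. The list holds both sox2 genes, which were not called. Of 8 tested pituitary genes 3 rose with long days over both genotypes, the gonadotropin subunit genes fshb, lhb and cga. Between genotypes over both photoperiods 1 of the 8 rose in the knockout, pou1f1, a transcription factor of pituitary hormone cells (0.46, adjusted p = 0.0491 by limma). That call lay at the threshold, and its stability under the alternative settings was not examined. The summed level of the pituitary list, led by pomc, ran from 2123 to 9281 TPM in the short-day libraries and from 4662 to 9505 TPM in the long-day libraries. Of 3 tested microglial, 9 ependymal and 6 stress or reactive glia genes, vim among the last, 0 were called by limma in any comparison. For day length over both genotypes 1, 2 and 2 of them had an unadjusted p under 0.05, against 18.8% of all genes. Between genotypes over both photoperiods there were also 1, 2 and 2, against 15.6% of all genes. The part of these other cells in the level of s100b was not tested.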

How the data were processed

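The authors deposited 1 table of TPM values per gene for 12 libraries, made from poly-A selected, strand-specific paired-end libraries per the labels' protocols. Per the submitters' processing notes STAR 2.7.9a and RSEM 1.3.1 were used, with the part of each not stated. The sources used here name no build or annotation. All 26663 gene IDs matched the RefSeq gene table of ASM223467v1, which gave symbols and gene order. No coordinates or sequences are printed.

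Those 18218 genes that reached 1 TPM in 3 or more libraries entered 1 limma fit (limma 3.58.1, R 4.3.3) of log2(TPM + 1) with a mean for each of the 4 groups and a trended prior variance, over 7 contrasts. The pseudocount of 1 makes differences of low genes smaller than their ratios. Tests were two-sided, and intervals are 95%. Depth is unknown, so the number of libraries limits the precision. The fit was also run on simulated data, with added changes larger than any found for s100b, so that run does not bear on the s100b calls. Members, lists and tests were chosen with earlier results of these data known. Lists are described by counts and medians, with no set test. Many listed symbols, some of them alternative forms of 1 name, matched no row. The rows matched were 13 for 32 symbols (glutamate), 8 for 28 (filaments), 5 for 19 (endothelium and blood) and 3 for 17 (microglia). Counts therefore cover only the part of each list that was found and tested.

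Named genes were the members, the 5 most and 3 least like each in pattern (of which the text gives a part), called list members (up to 4 a list and contrast) and up to 6 of the most abundant members of the glial, S100, SOX, filament and glutamate lists. Outside this rule sox9, synm, prph, gap43, pcna and the helicase subunit genes other than mcm7 were named after their values were seen. The within-library ratios, the overlapping noncoding genes and the tissue check genes, interferon-induced genes included, were added after values were seen. Alternatives are described in the closing section.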

Additional observations from a re-analysis of the deposited data

Results flagged for a closer look

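The fatty acid binding protein gene fabp7, a radial glia marker, had day-length differences of opposite sign in the genotypes, none of which was called. In wild type every long-day library (2139, 2057 and 2215 TPM) was above every short-day library (1841, 1858 and 1684 TPM). In the knockout every long-day library (1455, 1714 and 1770.4 TPM) was below every short-day library (2172, 2328 and 1847 TPM). The interaction of genotype and photoperiod was -0.61 on the log2 scale, with an adjusted p of 0.272 by limma, which does not pass. Its unadjusted p was 0.000955 by limma, and 7.93% of all genes had an unadjusted p under 0.05 in that test. The day-length differences were 0.25 in wild type and -0.36 in the knockout (adjusted p = 0.357 and 0.101 by limma). The neuronal gene gap43, picked after its values were seen, also had opposite signs, 0.24 in wild type and -0.16 in the knockout, with an interaction of -0.40 (adjusted p = 0.403 by limma). The other neuronal genes did not share this. Of the 13 tested, 6 had a positive interaction, with a list median of -0.02 against 0.08 over all genes. Only gap43 of the 13 had an unadjusted p under 0.05 by limma in that test. In none of the 5 members did the libraries separate in opposite directions.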

How the results depend on the processing

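Single choices were changed: the pseudocount (0.1), the filter (any TPM above 0), the scaling (median-ratio, or without the 20 most abundant genes), the prior variance (no trend), array weights, separate fits of each pair of groups, a replicate block, and each library omitted. Of 575 values for the 5 members, 525 kept direction and side of the threshold, 22 lost a call, 28 changed sign and 0 gained a call; where no value is given for a cause, the cause was not tested. The knockout rise of s100b (0.47) lost its call with the wider filter (0.4664), median-ratio scaling (0.4354), no trend (0.4664), its pair of groups alone (0.4664, adjusted p = 0.131 by limma) and short-day wild-type replicate 3 left out of the shared spread (0.4664), and ranged from 0.354 to 0.5325 with a library omitted. The s100b genotype difference over both photoperiods lost its call with the wider filter (-0.3251) and no trend (-0.3251), and ranged from -0.3813 to -0.292 with a library omitted.

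Changes of sign concerned differences near 0. With array weights these were -0.0056 for glul (day length, wild type), 0.0127 for vim (day length, both genotypes), -0.0135 for sox2 101162114 (genotype, long days) and -0.0607 for cyp19b (genotype, both photoperiods). With median-ratio scaling they were 0.008 for vim and -0.0017 for sox2 101162114 in the same comparisons, and -0.0025 for the glul interaction. With a library omitted the day-length difference in wild type ranged from -0.0321 to 0.042 for glul, -0.0359 to 0.1075 for vim and -0.0798 to 0.088 for sox2 100049368. That of vim ranged from -0.1479 to 0.0754 in the knockout and from -0.059 to 0.0526 over both genotypes. The genotype difference ranged from -0.0484 to 0.1194 for sox2 100049368 under short days, from -0.0003 to 0.1093 for sox2 101162114 under long days and from -0.0626 to 0.0941 for cyp19b over both photoperiods. The interaction ranged from -0.1778 to 0.0455 for vim and from -0.0699 to 0.0397 for sox2 101162114.

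Libraries with the same number deviated together little or not at all (r = 0.0817 and 0.0881 under short days, -0.0478 and -0.0049 under long days), so the numbers were not taken as pairs. The short-day values were the highest of that photoperiod, where pairs of unlike number ran from -0.1396 to 0.0483. Under long days pairs of unlike number ran from -0.0776 to 0.092. With the replicate block s100b kept its calls (0.4674, 0.3962 and -0.327), vim's day-length difference over both genotypes was 0.0006, and counts of called genes moved from 562 to 508 for day length and from 437 to 465 for genotype over all libraries.

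Of 1150 recomputed counts of called members in the glial, glutamate, filament, S100 and SOX lists, 81 moved by over 1.5 times. The cyp19b rise in wild type lost its call with its pair of groups alone (1.7016, adjusted p = 0.0515 by limma). Counts of called genes moved by over 1.5 times under some settings. Array weights gave 292 for 35 (day length, wild type), 1068 for 562 (both genotypes), 383 for 117 (genotype, long days), 719 for 437 (both photoperiods) and 9 for 1 (interaction). Pairs of groups alone gave 1 for 35, 61 for 321 (day length, knockout) and 74 for 121 (genotype, short days). No trend gave 186 for 321, 72 for 117 and 5 for 1. Without short-day wild-type replicate 3 in the shared spread the counts were 212 for 321 and 77 for 117. The wider filter gave 6 and the smaller pseudocount 0 for 1 (interaction). With 1 library omitted they fell to as low as 10, 81, 214, 27, 43 and 208 in the first 6 comparisons and lay between 0 and 6 for the interaction. Depth is unknown, and 3 libraries a group limit what can be told apart.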
